A study of Danio rerio with 16 samples.

Results

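Poly(A) sites of whole adult zebrafish (Danio rerio) were set against those of whole embryos at 72 hours post fertilization (hpf), as read by 3P-Seq, which sequences the junction between an RNA and its poly(A) tail and so places the 3′ end of the transcript on the genome. The adult library came from wild-type fish of mixed gender and the 72 hpf library from wild-type embryos. A wild-type whole-embryo library at 24 hpf gave side values and entered no call. The labels give 1 library per stage, no treatment, and no number of pooled animals. Sequenced 3′ ends lying within 10 nt on a strand were joined into a site, which is named after its most used position in danRer7 coordinates, counted from 1. A site was included when the adult and 72 hpf libraries together gave it at least 20 tags and it did not lie on the mitochondrial genome. This held for 29647 of 90940 sites (32.6%), with 14878 on the plus and 14769 on the minus strand. The 25 numbered chromosomes held 29159 of them and 240 unplaced scaffolds held 488. The 683 sites with exactly 20 tags had a median log2 ratio of adult over 72 hpf of -0.76, and the 750 sites just outside, with 19 tags, one of -0.66.

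The 3′ end of an mRNA is made by cleavage of the nascent transcript downstream of a poly(A) signal, followed by addition of the tail. Many genes carry several such signals, and use of an upstream one leaves a shorter 3′ untranslated region with fewer sites for microRNAs and RNA-binding proteins. In vertebrates, nervous tissue tends toward downstream sites and the germ line, testis in particular, toward upstream ones. At 72 hpf the zebrafish embryo has formed most of its organs but has no mature gametes, whereas an adult body holds gonads and a full set of adult organs. No gene annotation of danRer7 was used, so sites are given by position and carry no gene name, and markers of tissues could not be checked against the labels.

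The adult library held 7470435 tags and the 72 hpf library 9813481, and the 24 hpf library held 7423152. Levels are in counts per 1000000 tags of the library (CPM). A site without tags is below the floor of 3 tags, which is 0.402 CPM in the adult and 0.306 CPM at 72 hpf. The included sites took up 93.7% of adult tags, against 93.2% at 72 hpf. Tags were spread over distinct intervals differently in the 2 libraries: 53.0% of the adult intervals held a single tag, against 14.6% at 72 hpf, and within the included sites an interval held a mean of 22.8 tags in the adult and 38.7 at 72 hpf.

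More sites were lower in the adult than were higher. A site was called when its CPM differed by at least 4-fold and the 95% Clopper-Pearson interval of the ratio, conditional on the summed tags, excluded 2-fold. By this rule 5706 sites were called higher in the adult (19.2% of those tested) and 8352 lower (28.2%). The other 15589 sites, 52.6%, were called in neither direction. The minimum of 20 tags admitted a site seen only in the adult from 2.68 CPM, and one seen only at 72 hpf from 2.04 CPM. How far the excess of lower sites rests on this was not tested. With median-ratio scaling, 6267 sites were called higher (21.1%) and 7263 lower (24.5%). A looser rule, of 2-fold with an interval that excluded 1, called 8289 sites higher (28.0%) and 13018 lower (43.9%). A stricter one, of 8-fold with an interval that excluded 4-fold, called 4066 higher (13.7%) and 3730 lower (12.6%), which ended the excess of lower sites. In all of these rules a library without tags counted as 3 tags for the fold. Against such a library, 20 tags made 8.76-fold in the adult but 5.07-fold at 72 hpf. How far the end of the excess rests on this was not tested. The whole interval lay within 2-fold for 3174 sites (10.7%). This share varied with depth. It was 0.452% among 10620 sites with 20 to 49 tags and 30.1% among 415 sites with at least 5000 tags. Few tags give a wide interval, so the 10.7% does not count all sites of like level. The median log2 ratio over all sites was -0.65, with 5% of sites below -5.12 and 25% below -2.40, and with 25% above 1.34 and 5% above 6.50. There is no replicate check: each call compares these libraries, the intervals cover counting error only, and copies made by PCR are not independent tags. Counting each distinct interval once in place of its tags gave 549 calls higher (1.85%) and 805 lower (2.72%). It kept 549 of the 5706 higher calls and 803 of the 8352 lower ones, and 0 calls turned direction. Interval counts are small, with medians in the adult and at 72 hpf of 12 and 1 at the higher sites and 3 and 8 at the lower ones. The absence of turned calls therefore says little. In whole animals, fewer cells of a type and less RNA per cell cannot be told apart.

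**Figure D1:**
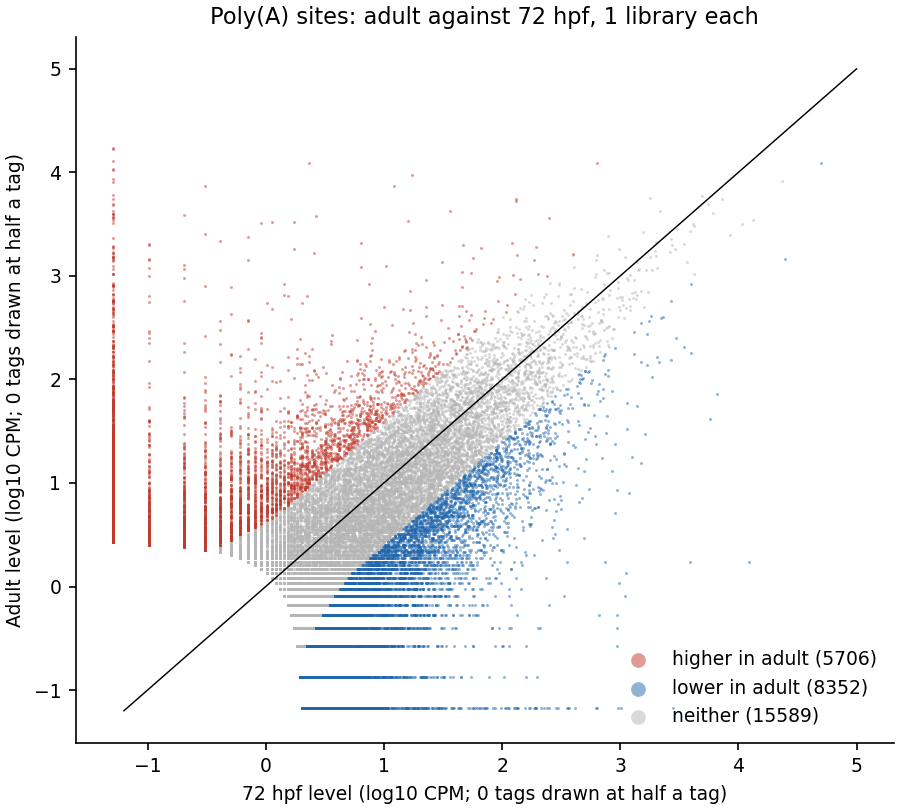
Level of each of the 29647 poly(A) sites in the adult (vertical axis, log10 CPM) against 72 hpf (horizontal axis, log10 CPM); a library without tags is drawn at 0.5 tags, the line marks equal levels, and colours mark the calls. The column of points at the left edge holds the 2439 sites without a tag at 72 hpf, which reach higher levels in the adult than the 1352 sites without an adult tag reach at 72 hpf.

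The smaller group of adult-high sites carried more of its library. Sites called higher in the adult held 47.2% of all adult tags and 1.39% of 72 hpf tags. Sites called lower held 4.38% of adult tags and 39.6% of 72 hpf tags, and uncalled sites held 42.2% of adult tags and 52.2% of 72 hpf tags. In its strong library the median called site lay above the median of all sites, and the calls used these same levels. The median level of the higher sites was 7.5 CPM in the adult, beside 3.48 CPM over all sites, and 0.204 CPM at 72 hpf. That of the lower sites was 0.669 CPM in the adult and 7.95 CPM at 72 hpf, beside 4.38 CPM over all sites there. In the 24 hpf library, which took no part in the calls, the higher sites held 3.61% of tags and the lower sites 30.8%. No tag at 24 hpf was found at 2593 of the higher sites (45.4%) and at 1152 of the lower sites (13.8%). Uncalled sites lacked a 24 hpf tag in 1490 cases (9.56%), beside 5235 (17.7%) over all sites.

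**Figure D2:**
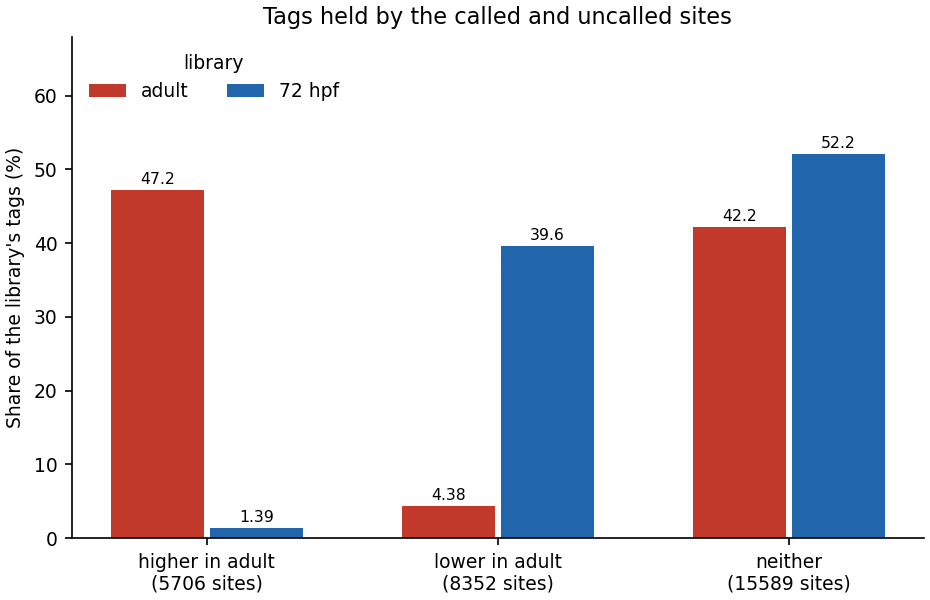
Share of all tags of a library (vertical axis, %) at the sites called higher in the adult, called lower in the adult, or called in neither direction, with 1 bar per library and the value above it. The 5706 higher sites hold 47.2% of adult tags against 1.39% of 72 hpf tags, while the larger set of 8352 lower sites holds 4.38% against 39.6%.

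Sites seen in only 1 of the 2 libraries were unequal in weight. The 2439 sites without a tag at 72 hpf held 22.3% of all adult tags, with a median of 37 adult tags a site. Of these, 1809 (74.2%) had no tag at 24 hpf either, and 433 had at least 4 there. The 1352 sites without an adult tag held 1.89% of the 72 hpf tags, with a median of 32 tags a site. At 24 hpf they held 3.17% of tags, 451 of them (33.4%) had no tag, and 705 had at least 4. Over all 29647 sites, 5235 (17.7%) had no tag at 24 hpf and 22222 had at least 4. A count of 0 here allows up to 3 tags in that library.

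The balance of the 2 directions turned with the size of the difference. With a library without tags set to the floor, and with no condition on the interval, at least 4-fold separated 5872 sites higher in the adult and 9184 lower, and at least 16-fold 2235 higher and 2309 lower. At 64-fold or more there were 624 higher and 278 lower sites, and at 1024-fold or more 113 and 15. Those 113 sites held 25.7% of all adult tags, and the 15 held 2.76% of the 72 hpf tags. The floor acted unequally: against a library without tags, 39 tags made 17.1-fold in the adult but 9.90-fold at 72 hpf. How much of the turn rests on the floor was not tested. Depth touched the calls less evenly than the median: the median log2 ratio stayed between -0.74 and -0.36 over 7 classes of summed tags. The share called higher was 23.2% among 10620 sites with 20 to 49 tags, 12% among 2022 sites with 500 to under 1000 tags and 25.8% among 415 sites with at least 5000 tags. In the same classes the share called lower was 25.6%, 27.4% and 21.9%. In the deepest class 107 sites were higher and 91 lower.

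Tags were concentrated in few sites in each library. In the adult 188 sites held 50% of the tags at the included sites, against 348 sites at 72 hpf. The 10 leading sites held 12.3% of all adult tags, and the 10 leading at 72 hpf held 16.4% of all tags there. Going down the list reversed this, since the 100 leading sites held 39.0% of adult tags and 33.9% of 72 hpf tags.

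Of the 10 leading adult sites, 9 were called higher and 1 lower, and 6 had no tag at 72 hpf. The minus-strand site at position 3919423 of chromosome 3 had 12204 CPM in the adult (91171 tags) and 2.34 CPM at 72 hpf (23 tags). Its level was 5207-fold higher in the adult (95% interval 3470 to 8215), and the 24 hpf library had 13.5 CPM there. The plus-strand site at 7482131 on chromosome 22 had 9485 CPM in the adult and 17.4 CPM at 72 hpf, 544-fold higher (468.5 to 636). Both were thus present in the embryo at a low level. By contrast the minus-strand site at 9777359 on chromosome 24 had 79018 adult tags and none at 72 hpf, with 6 tags at 24 hpf. Its fold was at least 34600.5 with 72 hpf set at the floor of 3 tags, as for each such fold below. The 95% interval began lower, at 28138, and the intervals of the other such folds also began below the fold given. Plus-strand 26273793 on chromosome 22 had 80580 adult tags, spread over 95 distinct intervals, and none in either embryo library. The leading adult site with the smallest rise was minus-strand 33608800 on chromosome 6. It had 12255 CPM in the adult and 641 CPM at 72 hpf, 19.1-fold higher (18.6 to 19.6), and 2221 CPM at 24 hpf.

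The leading embryo sites were all seen in the adult. Of the 10 leading sites at 72 hpf, 4 were called lower in the adult and 6 were called in neither direction, and all 10 had tags in each of the 3 libraries. The strongest of both stages, minus-strand 758922 on chromosome 17, had 12219 CPM in the adult and 50251 CPM at 72 hpf, 4.11-fold lower in the adult (4.08 to 4.14). It also ranked 5th in the adult, the 1 site in both lists. Plus-strand 31296974 on chromosome 7 had 1459 CPM in the adult and 24926 CPM at 72 hpf, 17.1-fold lower (16.8 to 17.4), and 4988 CPM at 24 hpf. On chromosome 19, minus-strand 5963568 had 73.1 CPM in the adult and 6635 CPM at 72 hpf, 90.8-fold lower (83.4 to 98.9). The other site called lower, minus-strand 5980626, lay 17.1 kb from it and had 13 adult tags against 120387 at 72 hpf. Several uncalled sites lay just short of the 4-fold bound. Minus-strand 22997268 on chromosome 15 had 3460 CPM in the adult and 13289 CPM at 72 hpf, 3.84-fold lower, and plus-strand 56199752 on chromosome 9 had 2461 and 8451 CPM in the same order, 3.43-fold lower. Minus-strand 32950582 on chromosome 3 had 4095 CPM in the adult and 6113 CPM at 72 hpf, and 1022 CPM at 24 hpf.

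Among the 2235 sites with at least 1000 tags over both libraries, 368 were called higher in the adult (16.5%) and 562 lower (25.1%), while 118 lacked a 72 hpf tag and 31 lacked an adult tag. Plus-strand 55983728 of chromosome 3 had 0 adult tags and 27654 at 72 hpf, at least 7017-fold lower, and 7932 tags at 24 hpf. On the plus strand of chromosome 12, position 15890506 had 1.74 CPM in the adult and 3908 CPM at 72 hpf, 2246-fold lower (1313 to 4218). At 24 hpf it had 364 CPM, so its level was highest at 72 hpf of the 3 libraries. Minus-strand 33919432 on chromosome 5 had 0 adult tags and 6137 at 72 hpf, at least 1557-fold lower, and 173 tags at 24 hpf. The 24 hpf level could also exceed that at 72 hpf: minus-strand 17701282 on chromosome 12 had 4 adult tags and 9249 at 72 hpf, 1760-fold lower (687 to 6462), and 133019 tags at 24 hpf. Minus-strand 17784892 and 17962598 on that chromosome had nearly the same counts, 9263 and 9175 tags at 72 hpf and 132444 and 132740 at 24 hpf. Whether these tags belong to 1 or several loci was not tested.

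Other strong sites had like levels in the adult and at 72 hpf. Of 439 sites with at least 1000 tags in each library, 88 met a closer bound of near-equality, with ratios of adult over 72 hpf between 0.834 and 1.22. Minus-strand 34306761 on chromosome 14 had 5001 CPM in the adult and 5534 CPM at 72 hpf, a ratio of 0.904 (0.892 to 0.916), and more at 24 hpf, 7291 CPM. Plus-strand 19053504 on chromosome 16 had 2127 CPM in the adult and 2016 CPM at 72 hpf, a ratio of 1.06 (1.03 to 1.08), and 2219 CPM at 24 hpf. Plus-strand 54441099 on chromosome 20 had 2841 CPM in the adult and 3000 CPM at 72 hpf, a ratio of 0.947 (0.930 to 0.964), and also more at 24 hpf, 5164 CPM. This last site stands 56.8 kb from the strongest adult site, plus-strand 54384260, which lacks any 72 hpf tag.

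Chromosomes 20 and 22 had the highest shares of sites called higher and the highest ratios of summed levels. Their sites were called higher in 23.3% and 25.7% of cases, against a median of 19% over the numbered chromosomes, and lowest on chromosome 6 with 14.8%. Summed over its sites, chromosome 20 had 109840 CPM in the adult and 34957 CPM at 72 hpf, 3.14-fold higher (3.13 to 3.15), with 51.2% of the adult sum in its 5 leading sites. Chromosome 22 had 80703 CPM in the adult and 19339 CPM at 72 hpf, 4.17-fold higher (4.15 to 4.19). Without the 5 leading sites of each library, chromosome 20 had 41437 CPM in the adult and 21716 CPM at 72 hpf, 1.91-fold higher (1.90 to 1.92). Chromosome 22 then had 41377 CPM in the adult and 14943 CPM at 72 hpf, 2.77-fold higher (2.75 to 2.79), the highest ratio of any chromosome. Of its 275 sites called higher, 36, 18 and 17 lay in runs of neighbouring sites between 25203632 and 26327079, described below. These runs summed to 28349, 14440.5 and 3037 CPM in the adult. Only 10 sites of the chromosome were left out, so most sites of these runs stayed in the 2.77-fold comparison. The sums of some other chromosomes turned on a few sites. Chromosome 17 had 36688 CPM in the adult and 70912 CPM at 72 hpf, a ratio of 0.517, but without the leading sites of each library the ratio was 1.08 (1.07 to 1.08). Chromosome 9 had the highest share of sites called lower, 32.6%, and the lowest median log2 ratio, -0.99. Of its 353 lower sites, 38 and 13 lay in runs described below.

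**Figure D3:**
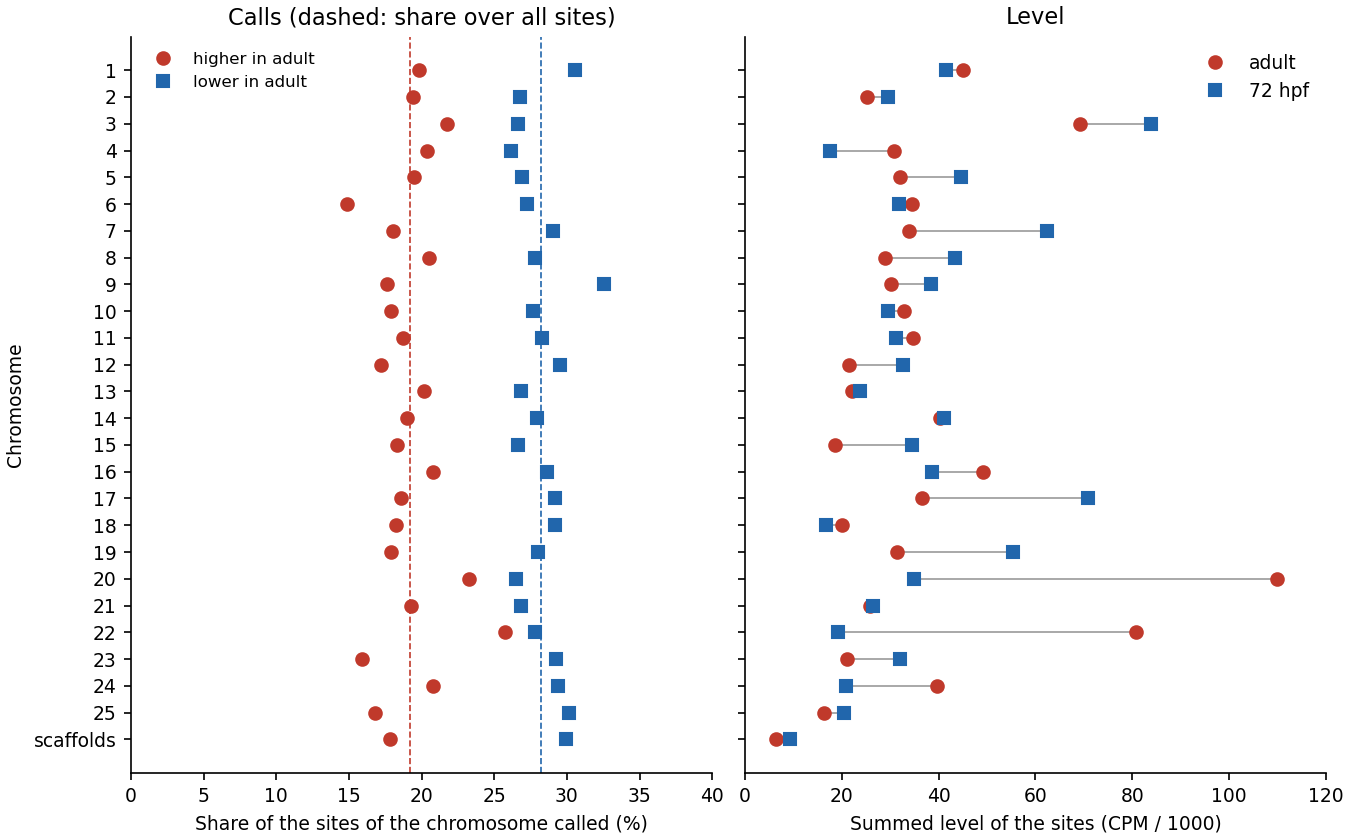
Left, share of the sites of each chromosome called higher (circles) and lower (squares) in the adult, in %, with dashed lines at the shares over all sites; right, summed level of the sites in the adult (circles) and at 72 hpf (squares), in CPM divided by 1000. Chromosomes 20 and 22 stand to the right for the adult in the level panel, and chromosomes 17, 7 and 3 reach the highest sums at 72 hpf.

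Sites were read along each chromosome with both strands together, and consecutive sites called in 1 direction made a run. Runs of at least 2 sites numbered 1128 higher and 1844 lower in the adult, those of at least 5 sites 98 higher and 168 lower, those of at least 10 sites 16 higher and 8 lower, and those of at least 13 sites 6 higher and 5 lower. An uncalled site ends a run, so every site in it was called by the same comparison, and the direction and the summed folds and intervals of a run describe that choice and do not test it. The longest was a run of 38 lower sites between 23114266 and 23377942 on chromosome 9, with 37 on the minus strand. It summed to 1.61 CPM in the adult and 4611 CPM at 72 hpf, and to 73.3 CPM at 24 hpf. Chromosome 22 held 3 of the longest runs higher in the adult, all between 25203632 and 26327079. The run of 36 sites summed to 28349 CPM in the adult and 0.204 CPM at 72 hpf, that of 18 sites to 14440.5 CPM in the adult and 0 tags at 72 hpf, and that of 17 sites to 3037 CPM in the adult and 17.8 CPM at 72 hpf. A run of 15 higher sites filled 22.5 kb of chromosome 20, between 54368478 and 54391011, with 14 on the plus strand. It held 48883 CPM in the adult, against 0 tags at 72 hpf, at least 159905-fold higher, and 14 tags at 24 hpf. Of that, 4 sites made nearly all, with 17045, 16987, 8713 and 5993 CPM in the adult, and the next had 40.2 CPM. Apart from its 2 leading sites the run still held 14851 CPM in the adult. The run of 13 higher sites between 9777359 and 9831551 on chromosome 24, with 12 on the minus strand, held 19300 CPM in the adult and 0.204 CPM at 72 hpf. Its levels were more even, with a median of 737 CPM in the adult, against 7.9 CPM in the chromosome 20 run. On chromosome 4, 13 minus-strand sites between 61123767 and 61147431 summed to 4251 CPM in the adult, against 0 tags at 72 hpf, at least 13905-fold higher.

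Runs of sites called lower ranged in summed fold and in their level at 24 hpf. On chromosome 3, 13 sites of both strands between 55966544 and 55999278 had 0 tags in the adult and 3920 CPM at 72 hpf, at least 9762-fold lower, and 1915 CPM at 24 hpf. On chromosome 12, 17 sites between 17517852 and 18018797 had 3.08 CPM in the adult and 3585 CPM at 72 hpf, 1164.5-fold lower (776 to 1837), but 87938 CPM at 24 hpf. On chromosome 25, 15 sites between 32122604 and 32397111 had 16.1 CPM in the adult and 1012 CPM at 72 hpf, 63.0-fold lower (52.6 to 76.0). Without the 2 leading sites, which lie 66 nt apart, that fold was 17.4 (13.7 to 22.3). The milder run of 13 sites between 43723223 and 44106134 on chromosome 9 had 152 CPM in the adult and 796 CPM at 72 hpf, 5.23-fold lower (4.91 to 5.57), and each of its sites had adult tags. Of the runs described, the 5 longest were chosen by rule and the others after their values were seen. Some sites within runs lie so close that 1 transcript end may have been split: gaps of at most 24 nt number 6 in the run of 38 on chromosome 9, 5 each in the chromosome 20 and chromosome 4 runs and the run of 18 on chromosome 22, and between 0 and 3 in each of the other runs described. Sites in repeated copies of a sequence were looked for by near-equal tag profiles. Only sites with at least 1000 tags in the adult or at 72 hpf were compared, so copies among weaker sites of a run were not looked for. Such sites numbered 7 in the chromosome 12 run, 5 in the chromosome 4 run, and 2 each in the chromosome 20, 24 and 3 runs and the run of 17 on chromosome 22, and whether their tags belong to 1 or several loci was not tested.

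**Figure D4:**
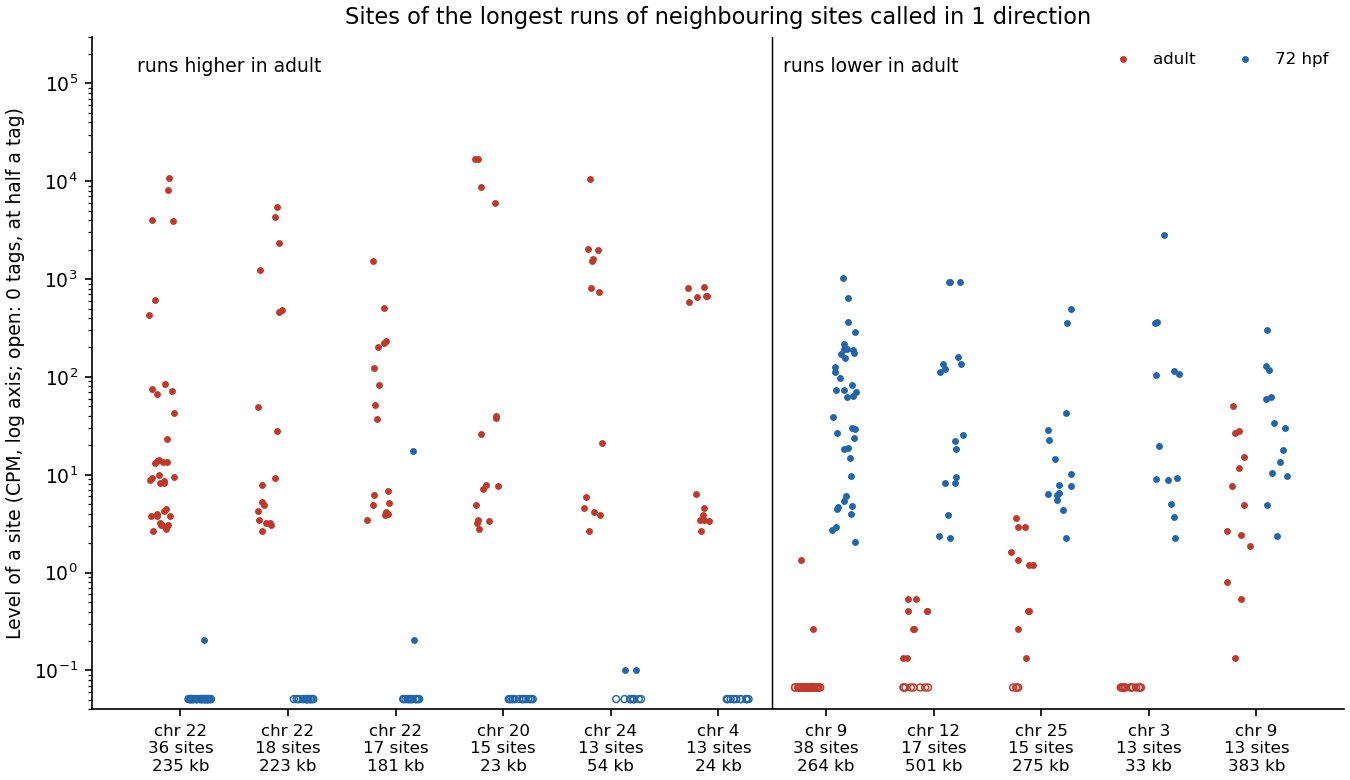
Level of every site (log CPM axis) in the 11 runs of at least 13 consecutive sites called in 1 direction, with the adult left of 72 hpf in each run; open points mark 0 tags, drawn at 0.5 tags. In the 6 runs higher in the adult nearly all 72 hpf points lie at 0 tags, while among the 5 lower runs the adult points overlap the 72 hpf points in the last one, on chromosome 9, and at the low end in the chromosome 25 run.

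Opposite calls between neighbours on the same strand were rarer the closer the sites lay. Over all sites 19.2% were called higher and 28.2% lower, and what unrelated sites would give in pairs was not tested. Of 2460 neighbouring pairs 11 to 49 nt apart on the same strand, 402 (16.3%) were both higher and 422 (17.2%) both lower in the adult. Opposite calls were seen in 4 (0.163%). From 200 to under 1000 nt, 270 of 2901 pairs (9.31%) were both higher, 416 (14.3%) both lower and 61 (2.1%) opposite. From 5000 to under 20000 nt, 325 of 3676 (8.84%) were both higher, 312 (8.49%) both lower and 337 (9.17%) opposite. Between opposite strands the share of opposite calls was larger at short range. Of 121 pairs 11 to 49 nt apart on opposite strands, 3 (2.48%) were both higher, 11 (9.09%) both lower and 6 (4.96%) opposite. Of 453 pairs from 200 to under 1000 nt apart on opposite strands, 5 were both higher, 38 both lower and 40 (8.83%) opposite. Sites of 1 transcript or 1 gene are not independent, so the number of called sites may exceed the number of genes behind it.

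Where a transcript ended was compared within each library, by the share of tags that fell at the downstream site of a neighbouring same-strand pair 50 to 5000 nt apart. This share does not depend on library size, and such pairs are candidates for alternative ends of the same gene, though without annotation some will join separate genes. Both libraries had at least 20 tags at 10937 of 39874 pairs, and both sites were themselves included sites in 2772 of these. A change of at least 20 percentage points toward the upstream site in the adult was seen at 1279 pairs (11.7%) and toward the downstream site at 336 (3.07%). Upstream changes were thus 79.2% of the shifted pairs (95% Clopper-Pearson interval 77.1 to 81.2, over pairs that are not independent). Smaller changes leaned the same way, with any move upstream at 6367 pairs, downstream at 3442 and none at 1128. The median change was -0.90 points. With distinct intervals in place of tags 1563 pairs could be measured, of which 100 moved upstream and 14 downstream.

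The lean toward the upstream site was present at each distance. Upstream and downstream changes were seen at 406 (9.47%) and 145 (3.38%) of 4287 pairs from 50 to under 200 nt apart. From 200 to under 1000 nt there were 486 (12.5%) and 78 (2.0%) of 3896 pairs, and at 1000 to 5000 nt 387 (14.1%) and 113 (4.1%) of 2754. The median share at the downstream site was lower in the adult in each class. It was 79.2% in the adult and 86.0% at 72 hpf in the shortest class, 76.3% and 89.0% in the middle one, and 57.1% and 80.7% in the longest. At 24 hpf these medians were 86.8%, 87.9% and 78.6%. The mean shares differed less between the adult and 72 hpf than the medians did. They were 57.8% and 61.2% in the shortest class, 55.7% and 61.0% in the middle one, and 50.2% and 55.9% in the longest. Within pairs the median change was -0.71, -1.19 and -0.84 points in the same order of classes.

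**Figure D5:**
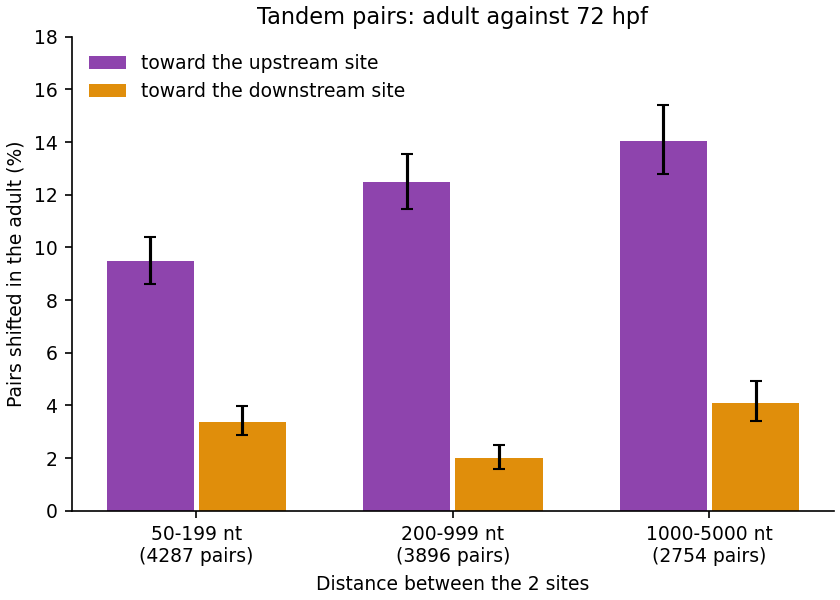
Share of tandem pairs (vertical axis, %) whose tags moved by at least 20 points toward the upstream or the downstream site in the adult against 72 hpf, by the distance between the sites; bars show the share and lines its 95% Clopper-Pearson interval. Upstream bars stand at 9.47%, 12.5% and 14.1% over the 3 classes, each above the downstream bars of 3.38%, 2.0% and 4.1%.

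The shifted pairs were chosen on the balance of their sites in these libraries, so the levels of the sites describe that choice. Over the 1279 pairs shifted upstream, the median log2 ratio of adult over 72 hpf was 2.21 at the upstream site and -1.42 at the downstream site. The upstream site had enough tags to be included in 1002 of them and was called higher in 449, beside 19.2% of all sites. The downstream site was included in 1107 and was called lower in 325, a share close to the 28.2% of all sites. Both sites were included in 830 pairs and called in these directions in 66. Over the 336 pairs shifted downstream the median log2 ratios were -1.80 at the upstream site and 1.82 at the downstream site. The 24 hpf library was pooled with the others in forming the sites but was not used in choosing the shifted pairs. It had at least 20 tags at 933 of the upstream-shifted pairs. Their median share at the downstream site was 36.8% in the adult and 84.4% at 72 hpf, and 76.9% at 24 hpf. The 24 hpf share lay nearer to that of 72 hpf in 665 of the 933 (71.3%). For the 202 downstream-shifted pairs measured at 24 hpf, the medians were 69.5% in the adult and 22.9% at 72 hpf, and 46.9% at 24 hpf, with 109 (54.0%) nearer to 72 hpf.

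Single pairs show how complete a shift could be. On the plus strand of chromosome 13, the downstream site at 37008795, 81 nt past 37008714, took 13.2% of 151 tags in the adult (8.28 to 19.7), against all 206 tags at 72 hpf (98.2 to 100). At 24 hpf its share was 88.1%. At plus-strand 27727780 and 27728530 on chromosome 10, 750 nt apart, the downstream site took 21.8% of 271 adult tags (17.0 to 27.2), against 99.6% of 248 tags at 72 hpf (97.8 to 99.99). Only the upstream site of that pair passed the call, being higher in the adult. The reverse pattern of calls was seen at minus-strand 33320332 and 33319916 on chromosome 9, a pair also shifted upstream. Its downstream site took 25.9% of 436 adult tags and 91.8% of 3577 tags at 72 hpf. There the upstream site was uncalled, with 323 tags in the adult and 292 at 72 hpf, and the downstream site was lower in the adult, with 113 tags against 3285. At plus-strand 62955426 and 62956686 on chromosome 7, 1260 nt apart, the downstream share was 11.6% in the adult and 97.2% at 72 hpf, and all 87 tags at 24 hpf lay at the downstream site.

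Shifts toward the downstream site were fewer. Where both libraries reached 100 tags, the 3 largest changes in the downstream share were 81.3, 80.2 and 77.6 points at 1000 to 5000 nt, beside -93.0, -90.4 and -85.6 points for the largest upstream shifts. From 200 to under 1000 nt they were smaller, 49.1, 42.5 and 25.8 points, beside -78.5, -77.8 and -65.9 points upstream. Below 200 nt they were 95.2, 34.01 and 29.04 points, beside -86.8, -64.5 and -62.9 points upstream. At minus-strand 32174909 and 32173715 on chromosome 5, the downstream site took 83.1% of 320 adult tags (78.6 to 87.1), against 2.88% of 208 tags at 72 hpf (1.07 to 6.17). The 24 hpf share of 95.2% lay above that of the adult, and nearer to it than to that of 72 hpf. At plus-strand 1706385 and 1711136 on chromosome 10, 4751 nt apart, the share was 87.6% in the adult and 10.04% at 72 hpf, with 57.1% of 35 tags at 24 hpf. At minus-strand 32673701 and 32673351 on chromosome 3, 350 nt apart, it was 67.4% of 138 adult tags and 18.3% of 257 tags at 72 hpf. Neither of its sites passed the call, so a change in the balance of ends can stand at sites whose own levels were uncalled.

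Within sites the most used cleavage position was mostly shared. Each site joins ends within 10 nt of the position with most tags over the pooled libraries, and ends farther off fall to other sites. This joining favours agreement and limits the moves that can be seen. Among 4386 sites with at least 100 tags in each library, 4053 (92.4%) had their most used position at the same nucleotide. The adult position lay downstream at 211 sites (4.81%) and upstream at 122 (2.78%), and by at least 5 nt at 96 and 49. The most used position held a median of 79.8% of the site's tags in the adult and 80.8% at 72 hpf. Tags were found at a median of 6 positions a site in the adult and 4 at 72 hpf, although the median number of tags was lower in the adult, 285 against 436. Single-tag intervals were 53.0% of those in the adult library and 14.6% at 72 hpf. Whether the count of positions follows that difference between the libraries was not tested. At each of the 5 largest moves, both positions were used in both libraries. At minus-strand 70402313 on chromosome 7, the adult position lay 10 nt downstream of that at 72 hpf and held 51.7% of adult tags and 43.4% of 72 hpf tags. The 72 hpf position, 70402323, held 41.6% of adult tags and 53.7% of 72 hpf tags.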

How the data were processed

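Each deposited file lists stranded genomic intervals and a whole number, read here as raw tag counts: the values show no normalization by the authors, and no label or header defines the number. Alignment used Bowtie and Zv9 (danRer7), per the submitters' processing notes; its version, and any filter on tags with multiple matches, is not given in the sources used here. An offset of 1, per the file headers, was added to positions. Of the 16 samples, 13 were not used.

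From these counts, 3′ ends of all 3 libraries were pooled and joined per strand, the position with most tags first, within 10 nt, and sites with 4 or more tags were kept. Levels were scaled by all tags of a library, mitochondrial ones included. Log2 ratios had 0.5 tags added to each count. Folds against a library without tags use 3 tags and are lower bounds. Tools were Python 3.11.15, NumPy 2.4.6, pandas 2.3.3 and SciPy 1.17.1, and the steps were tested on simulated data. No p-value is given, since each stage has 1 library. Alternatives changed the scaling, the fold, the tag minimum and the joining distance, and put distinct intervals in place of tags.

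Named sites are the 10 leading of each library, the 10 largest folds in each direction among sites with at least 1000 tags, 5 near-equal sites, 3 pairs per distance class and direction, the 5 longest runs and the 5 largest moves of the cleavage position; the text gives a selection. The sites and these rules were chosen with earlier results of these data known.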

Additional observations from a re-analysis of the deposited data

How the results depend on the processing

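No paired analysis was possible because each stage has 1 library. Against 5706 sites higher and 8352 lower in the adult, the 8-fold rule gave 4066 (13.7%) and 3730 (12.6%), and the excess of lower sites ended. A library without tags counted as 3 tags for the fold, which acts unequally in the 2 libraries. How far the end of the excess rests on this was not tested. The 2-fold rule gave 8289 (28.0%) and 13018 (43.9%). A minimum of 100 tags left 2050 and 3748 of 13175 sites, and distinct intervals in place of tags gave 549 (1.85%) and 805 (2.72%) of 29647. A minimum of 10 tags gave 8699 and 9062 of 42593, and the floor of 3 tags acts unequally there too. Median-ratio scaling raised every log2 ratio by 0.26 and gave 6267 higher and 7263 lower, with the median log2 ratio at -0.39 against -0.65, a scaling of the median added after the data were seen; distinct intervals gave -0.49. Of the 1279 upstream and 336 downstream pairs, a minimum of 100 tags in each library left 215 and 33 of 3967, a change of 40 points 434 and 94, and distinct intervals 100 and 14 of 1563. Joining within 24 nt, scaling without mitochondrial tags, and counting near-equal sites once, also added after the data were seen, moved each count of calls they were run on by less than 1.5 times. The 0 tags behind a fold set at the floor allow up to 3 tags.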

Other observations

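Sites of opposite strands also met. A plus-strand site had a minus-strand site within 100 nt in 431 pairs, and in 122 of these the ends overlapped. Both sites were higher in the adult in 11 pairs and both lower in 39, while 25 had 1 higher and 1 lower site and 162 had no called site. Of the 862 sites counted over these pairs, 13.9% were called higher and 26.0% lower, beside 19.2% and 28.2% over all sites.

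Near-equal tag profiles (totals within 1.1 times and chi-square per degree of freedom over the intervals under 1.6), a comparison chosen after the data were seen, took up more of the adult library. In the adult, 39 of 856 sites with at least 1000 tags matched another site, in 19 groups with 5.56% of the adult tags. At 72 hpf, 35 of 1285 such sites matched, in 17 groups with 0.931% of the tags. The minimum in 1 library selects sites that are high there: of all 856 adult sites that met it 334 were called higher in the adult (39.0%) and 24 lower (2.8%), and of all 1285 at 72 hpf 16 were called higher (1.245%) and 514 lower (40%). Of the matched sites, 22 of 39 were called higher and 0 lower in the adult set, and 1 of 35 higher and 15 lower in the 72 hpf set.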
